A study of Mus musculus with 12 samples.

Results

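Vwa8, Fyco1, Bola1, Sox12, Zfp622 and Mtmr14 are 6 autosomal protein-coding genes of the mouse that were selected on measured values of these same libraries: in an earlier fit, their difference between exercised and sedentary hearts differed most between females and males, judged by p. All 6 were found in the deposited table of 55401 rows, and all 6 were among the 16213 genes that passed the filter on low counts. The libraries came from hearts of wild-type (WT) C57BL/6J mice, an inbred strain: 3 from exercised females (FEX), 3 from sedentary females (FSE), 3 from exercised males (MEX) and 3 from sedentary males (MSE). The exercised groups had 6 weeks of treadmill running, 5 days weekly, in sessions of 45 min at 1 km/h, while age-matched sedentary animals were left caged. Their age is not stated. The labels describe the samples as bulk heart tissue and do not state that each library is 1 animal, so the p-values refer to spread among libraries, some of which may be technical.

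Vwa8 encodes a mitochondrial ATPase of the AAA+ class, the ring-shaped motors that remodel or unfold other proteins. Bola1 encodes a small mitochondrial protein of the BolA family, which works with the glutaredoxin Glrx5 around the making of iron-sulfur clusters, the cofactors of the respiratory chain. Fyco1 encodes an adaptor that binds the small GTPase Rab7, the autophagosome protein LC3 and the lipid phosphatidylinositol 3-phosphate (PI3P), and so links autophagosomes to kinesin motors that carry them along microtubules. Mtmr14, a phosphatase of the myotubularin kind that is known for its role in muscle, removes phosphate from PI3P and from a related lipid. Sox12 is a transcription factor of the SoxC group, with Sox4 and Sox11 as its closest kin, and Zfp622 encodes a cytoplasmic zinc finger factor of the last steps in the maturation of the large (60S) ribosomal subunit, a role best described for its yeast counterpart.

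On the GRCm38 build, annotated with GENCODE M21, the genes lie on 6 different chromosomes. Vwa8 (ENSMUSG00000058997.8) spans chr14:78849052-79202310 on the plus strand, Fyco1 (ENSMUSG00000025241.16) chr9:123789500-123851899 on the minus strand and Bola1 (ENSMUSG00000015943.11) chr3:96196588-96219709 on the minus strand. Sox12 (ENSMUSG00000051817.8) spans chr2:152393611-152398063 on the minus strand, Zfp622 (ENSMUSG00000052253.6) chr15:25984366-25998481 on the plus strand and Mtmr14 (ENSMUSG00000030269.14) chr6:113237843-113281392 on the plus strand. They range from 4.45 kb for Sox12 to 353 kb for Vwa8. Genes that share exon positions with a member were nearly silent: the antisense gene Gm49016 at Vwa8 had 2 reads over all 12 libraries, against 81181 for Vwa8, and AC165425.1 at Fyco1 had 4, against 89319. None was found at Bola1, Sox12, Zfp622 or Mtmr14, and whether the counting used strand is not given.

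The promoters shown are those of the 3 genes whose exercised and sedentary libraries did not overlap in either sex. They come from RefSeq on GRCm38.p6 and run, in the sense of the gene, from 250 bases before to 50 bases after the annotated start. Windows were found for all 6 genes, with a second start for Fyco1, and the RefSeq start of Bola1 lies inside the longer GENCODE span. Capitals mark GGGCGG, the box bound by SP and KLF factors, in Vwa8, and the inner part of the motif of the zinc finger factor ZNF143 in Fyco1 and Bola1, each on either strand.
Vwa8, chr14:78848928-78849227, plus strand: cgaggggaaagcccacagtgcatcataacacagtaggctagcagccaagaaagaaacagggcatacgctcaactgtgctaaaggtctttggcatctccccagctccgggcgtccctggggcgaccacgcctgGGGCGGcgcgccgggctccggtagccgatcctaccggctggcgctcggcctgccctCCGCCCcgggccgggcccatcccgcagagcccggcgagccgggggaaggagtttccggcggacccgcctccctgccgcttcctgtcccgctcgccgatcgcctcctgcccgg
Fyco1, chr9:123851850-123852149, minus strand: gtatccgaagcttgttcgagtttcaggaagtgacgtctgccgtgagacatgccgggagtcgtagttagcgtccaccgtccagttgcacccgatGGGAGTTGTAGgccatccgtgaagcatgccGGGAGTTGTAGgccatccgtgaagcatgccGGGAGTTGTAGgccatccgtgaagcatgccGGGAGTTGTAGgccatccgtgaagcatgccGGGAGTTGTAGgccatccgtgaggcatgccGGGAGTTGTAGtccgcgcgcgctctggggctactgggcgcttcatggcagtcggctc
Bola1, chr3:96197537-96197836, minus strand: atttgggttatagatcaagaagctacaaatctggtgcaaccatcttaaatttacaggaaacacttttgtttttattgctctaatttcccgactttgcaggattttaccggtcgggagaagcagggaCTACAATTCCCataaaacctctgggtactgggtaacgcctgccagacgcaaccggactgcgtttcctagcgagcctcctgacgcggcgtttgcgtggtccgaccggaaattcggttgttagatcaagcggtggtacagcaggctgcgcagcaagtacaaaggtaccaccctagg

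The Fyco1 promoter was a repeat. The inner ZNF143 motif, spelled by its capitals, stood there 6 times on the opposite strand, each 30 bases from the last, beginning at -157 and ending with the copy at -7 from the start site, and 5 of the copies sat in the unit GCATGCCGGGAGTTGTAG. Bola1 held the motif once, at -124 on the gene's own strand, within a longer form of the same motif. Of 32851 RefSeq mouse promoter windows of this length, 1.01% held the inner motif, 0.731% the longer form and 0.0274% the Fyco1 unit. The inner motif and the unit were chosen after the sequences had been read, and Fyco1 and Bola1 moved in opposite directions. The Vwa8 window held GGGCGG 2 times, at -118 and at -62, and so did that of Mtmr14, while Zfp622 held it once and Sox12 4 times (35.7% of all windows held it). Mtmr14 alone among the 6 held CCGGAAGT, the box of ETS factors, at position 7 after the start (3.89% of all windows). The full palindromic sites of the oestrogen receptors, and those shared by androgen and glucocorticoid receptors, were found in none of these 7 windows. Only 0.07% and 0.475% of all windows held them, so their absence here says little. The GC content of the windows ran from 49.3% in Bola1 to 76.7% in Sox12, against a median of 52.7% over all windows.

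Counts per library came to between 22204349 and 32566240. The highest total, of female sedentary 2, included 27.3% of counts on the 37 mitochondrial rows, which were at 0 in the other 11 libraries and were not tested. Libraries of 1 group differed by more than sampling noise (chi-square per degree of freedom from 9.13 to 33.2). Each was counted as 1 replicate, though this spread does not show that the libraries are separate animals. The 8 cardiomyocyte markers were found in every library, with a summed level from 60600 to 70700 CPM, counts scaled to a common library size, the unit of all levels here. Transcripts of atrial muscle were high in 3 female libraries, the 5 markers summing to 303 CPM in female exercised 2. They summed to 202 CPM in female sedentary 1, to 76.9 CPM in female sedentary 2 and to between 3.38 and 23.8 CPM in the other 9. The 5 markers included 0 to 2 at 0 in each library. The same 3 libraries held the most red cell transcripts, with sums of 293, 3630 and 1750 CPM in that order, against 8.26 to 86.2 CPM in the other 9. Results are therefore also given without these 3 libraries, which leaves 2 exercised and 1 sedentary female.

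The measure that chose the genes is the interaction, the log2 exercise difference in females minus that in males, so it is described here without a test. In the fit used here, edgeR's quasi-likelihood test called 0 of 16213 genes for the interaction after Benjamini-Hochberg adjustment at 0.05 (0%), with 769 genes (4.74%) at an unadjusted p under 0.05. DESeq2 called 5 genes and limma's voom called 0. Ranked by p of the interaction among 15653 autosomal genes, Vwa8 was at place 1, Fyco1 at 2, Zfp622 at 6, Bola1 at 7, Sox12 at 19 and Mtmr14 at 21. The 6 are thus not the leading 6 of this fit: 15 other genes stand among the first 21, of which 14 have an interaction above 0. Between Fyco1 and Zfp622 these were C130080G10Rik, Cdh6 and Rwdd4a. Just inside the last place, Mtmr14 had an interaction of -0.45 ± 0.12 (SE), and just outside it stood Msrb3 at 0.36 ± 0.10, Pgs1 at -0.46 ± 0.12 and Ppara at 0.69 ± 0.19.

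Vwa8 and Fyco1, the genes with an interaction above 0, were higher in exercised than in sedentary females and lower in exercised than in sedentary males. Vwa8 had 265, 258 and 274 CPM in the exercised female hearts, against 237, 217 and 200 CPM in the sedentary female hearts. Its male libraries had 307, 268 and 282 CPM after exercise, against 341, 329 and 364 CPM in the sedentary state. The exercised and sedentary libraries did not overlap in either sex, sedentary males were highest and sedentary females lowest, and the exercised libraries of the sexes overlapped. The log2 exercise difference of Vwa8 was 0.28 ± 0.08 in females and -0.27 ± 0.08 in males (SE), an interaction of 0.56 ± 0.11.

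Fyco1 ran nearly alongside it. It had 277, 299 and 299 CPM in the exercised female hearts, against 276, 259 and 235 CPM in the sedentary female hearts. Its male libraries had 314, 302 and 301 CPM after exercise, against 374, 351 and 388 CPM in the sedentary state. The female groups were parted by the narrow gap between female exercised 1 and female sedentary 1, while the male groups lay well apart. Its log2 exercise difference was 0.18 ± 0.07 in females and -0.28 ± 0.07 in males (SE), an interaction of 0.46 ± 0.10. After centring each gene on its own mean, the log2 CPM of Vwa8 and Fyco1 differed by a root mean square of 0.07 over the 12 libraries, the smallest value among the 15 pairs of these genes. The widest pair was Vwa8 and Bola1, at 0.47.

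**Figure D1:**
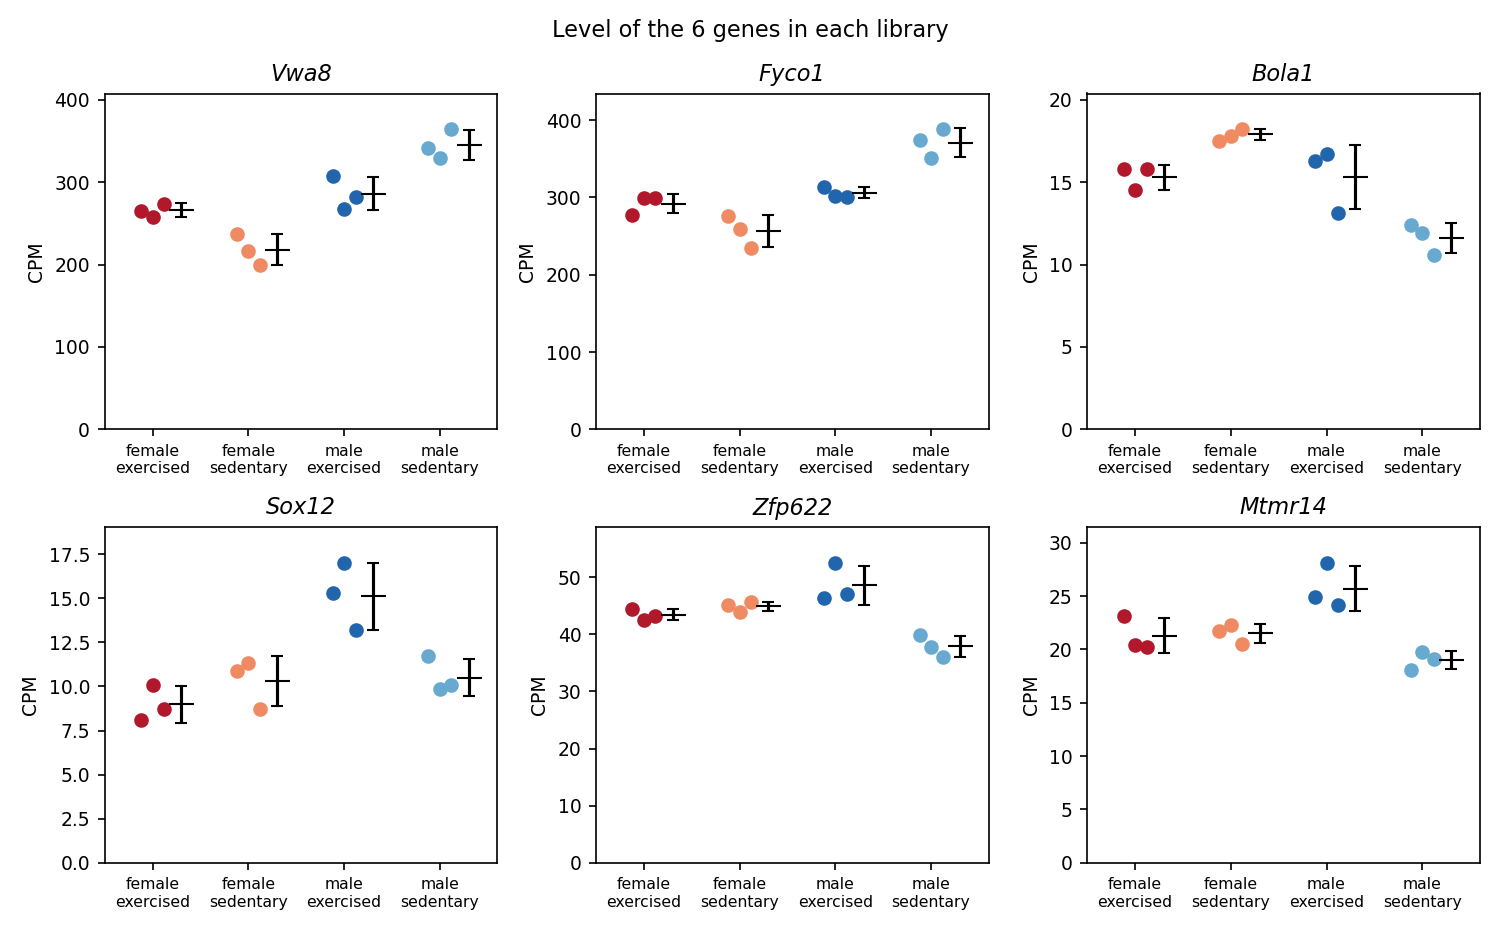
Level in CPM, on axes that start at 0, of the 6 genes in each of the 12 libraries (points), with the mean and SD of each group of 3 beside them in black. Vwa8 and Fyco1 are highest in sedentary males and lowest in sedentary females, while Sox12, Zfp622 and Mtmr14 are highest in exercised males.

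Bola1 was the mirror image: lower in exercised than in sedentary females and higher in exercised than in sedentary males. It had 15.8, 14.5 and 15.8 CPM in the exercised female hearts, against 17.5, 17.8 and 18.2 CPM in the sedentary female hearts. Its male libraries had 16.3, 16.7 and 13.1 CPM after exercise, against 12.4, 11.9 and 10.6 CPM in the sedentary state. Neither pair of groups overlapped, and male exercised 3 lay nearer to the sedentary males than to the other exercised males. The log2 exercise difference was -0.22 ± 0.10 in females and 0.40 ± 0.10 in males (SE), an interaction of -0.62 ± 0.15. The means of exercised females and exercised males were the same to the digits given, at 15.3 ± 0.751 and 15.3 ± 1.94 CPM (SD, n = 3 each).

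In Sox12, Zfp622 and Mtmr14 the male side carried most of the difference. Sox12 had 8.12, 10.1 and 8.70 CPM in the exercised female hearts, against 10.9, 11.3 and 8.71 CPM in the sedentary female hearts. Its male libraries had 15.3, 17.0 and 13.2 CPM after exercise, against 11.7, 9.85 and 10.1 CPM in the sedentary state. The female groups overlapped and the male groups did not. Its log2 exercise difference was -0.20 ± 0.14 in females and 0.52 ± 0.13 in males (SE), and its interaction of -0.72 ± 0.19 was the widest of the 6 and the one with the largest error.

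Zfp622 had 44.4, 42.5 and 43.2 CPM in the exercised female hearts, against 45.1, 44.0 and 45.6 CPM in the sedentary female hearts. Its male libraries had 46.3, 52.5 and 47.1 CPM after exercise, against 39.9, 37.7 and 36.1 CPM in the sedentary state. The female groups overlapped within a span of a few CPM, and every exercised male library lay above every other library of the series. The log2 exercise difference was -0.05 ± 0.07 in females and 0.36 ± 0.07 in males (SE), an interaction of -0.41 ± 0.10.

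Mtmr14 had 23.1, 20.4 and 20.2 CPM in the exercised female hearts, against 21.7, 22.3 and 20.5 CPM in the sedentary female hearts. Its male libraries had 24.9, 28.1 and 24.2 CPM after exercise, against 18.1, 19.8 and 19.1 CPM in the sedentary state. Here too the female groups overlapped, all exercised male libraries stood above the rest and all sedentary male libraries below. The log2 exercise difference was -0.02 ± 0.09 in females and 0.44 ± 0.09 in males (SE). Zfp622 and Mtmr14 were the second closest pair of these genes, with a root mean square difference of 0.09.

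**Figure D2:**
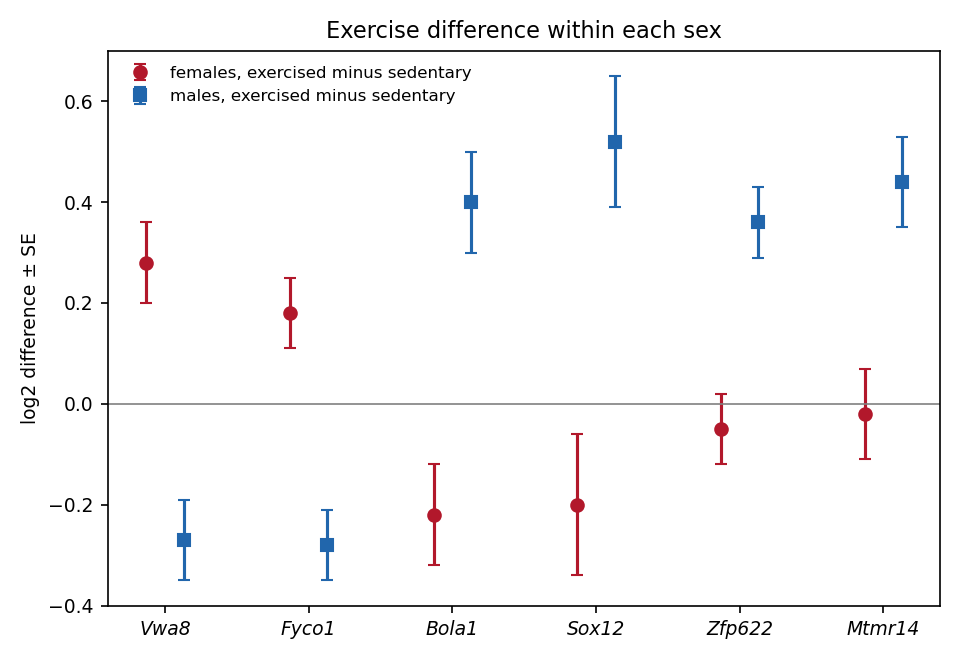
Log2 exercise difference (exercised minus sedentary) with its SE from the fit, in females (red circles) and in males (blue squares), for the 6 genes. The sexes lie on opposite sides of 0, by more than 1 SE each, for Vwa8, Fyco1, Bola1 and Sox12, while the female values of Zfp622 and Mtmr14, at -0.05 and -0.02, lie within 1 SE of 0.

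Exercised and sedentary libraries did not overlap for 3 of the 6 genes in females and for 6 of 6 in males, where 9.79% and 12.3% of all tested genes had no overlap. In both sexes and in opposite directions this held for 3 of the 6, Vwa8, Fyco1 and Bola1, and for 0.629% of all tested genes. The rule rests on these same differences, so nothing is read from those counts. Differences in bulk tissue cannot tell fewer cells of a type from less RNA per cell. Cardiomyocyte markers summed to 62600 to 63800 CPM in exercised and 60600 to 62700 CPM in sedentary females, and to 61800 to 69900 CPM in exercised and 63800 to 70700 CPM in sedentary males, with no marker of the 8 at 0. The 8 immediate early genes, which answer acute stimuli, summed to 6360 to 6980 CPM in exercised and 4570 to 5180 CPM in sedentary females, and to 3840 to 7980 CPM in exercised and 2530 to 4370 CPM in sedentary males. The 5 endothelial markers summed to 894 to 916 CPM in exercised and 830 to 862 CPM in sedentary males, without overlap. In females they summed to 782 to 879 CPM in exercised and 807 to 968 CPM in sedentary libraries. The sums of the other cell type lists overlapped between exercised and sedentary libraries in both sexes. The part of any of these in the results was not tested.

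Each interaction kept its sign when any 1 library was left out. The genes were chosen on this measure in these same libraries, so the kept signs give it no support. Vwa8 then ran from 0.50 to 0.62, Fyco1 from 0.40 to 0.52, Bola1 from -0.72 to -0.56, Sox12 from -0.83 to -0.63, Zfp622 from -0.45 to -0.35 and Mtmr14 from -0.52 to -0.39. Without the 3 libraries with atrial transcripts, Vwa8 was at 0.70 and Fyco1 at 0.57, and they stood at places 4 and 8. Female sedentary 3 was then the only sedentary female. It had the lowest Vwa8 and Fyco1 of all 12 libraries, at 200 and 235 CPM, so these larger values rest on 1 library. Bola1 was then at -0.61 ± 0.21 (SE) and place 136, Zfp622 at -0.41 ± 0.14 and place 147, Sox12 at -0.57 ± 0.23 and place 391, and Mtmr14 at -0.36 ± 0.17 and place 867. The signs were kept, while the errors were larger with 3 fewer libraries. With the atrial markers as a covariate in the fit of all 12 libraries, the 6 genes stood at places from 1 to 35.

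**Figure D3:**
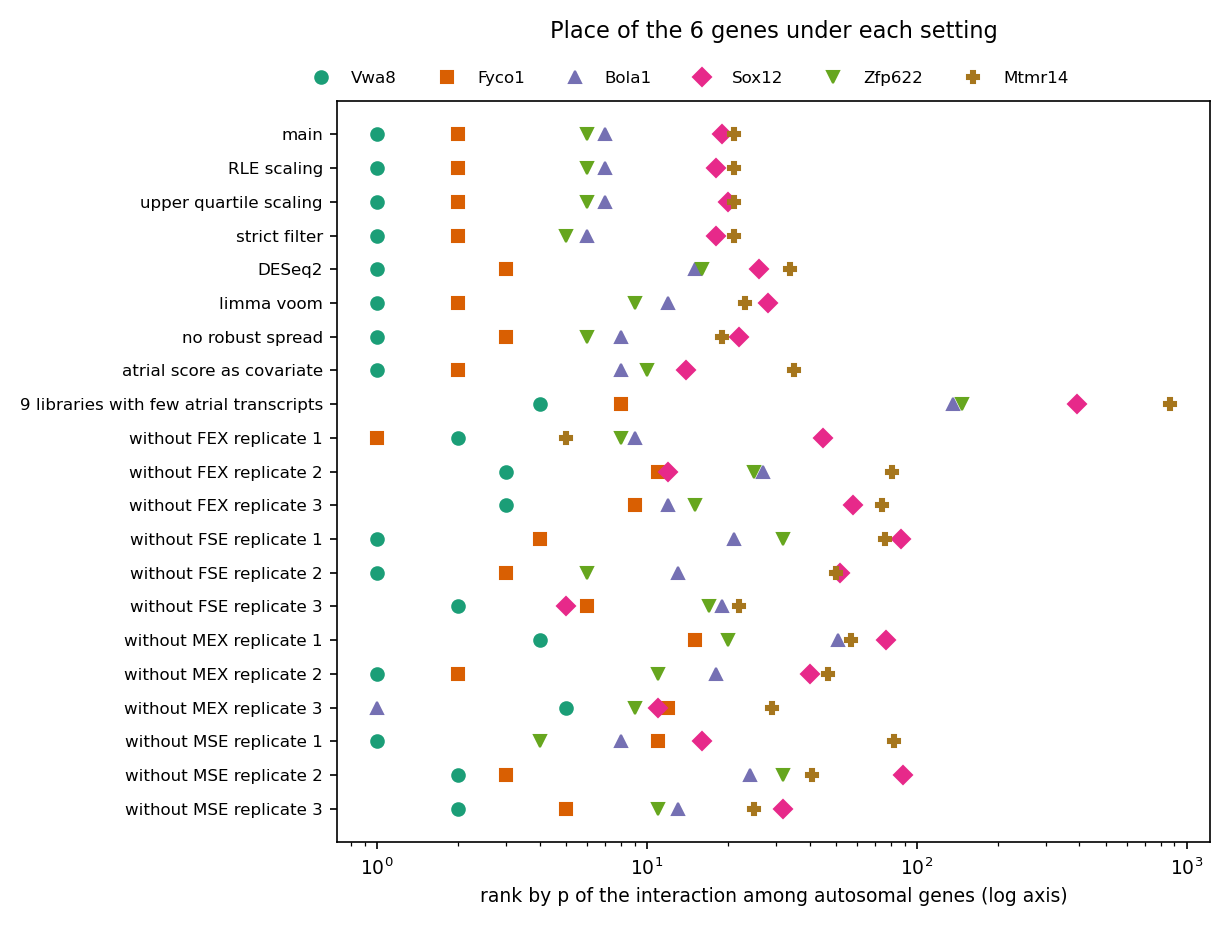
Place of the 6 genes among autosomal genes ranked by p of the interaction (log axis), under each setting but the fit without a filter, whose places, from 129 to 401, are not drawn. Vwa8 stays within the first 5 places throughout, and Sox12 and Mtmr14 move most, to 391 and 867 in the 9 libraries low in atrial transcripts.

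Exercise averaged over the sexes and sex averaged over the conditions are contrasts that are orthogonal to the interaction in this balanced design, and could be tested for the 6 genes. They share with it the same estimate of spread, and a rule on p favours genes whose spread is small: of genes of like level, 11.5% varied less within groups than Zfp622, and 62.7% varied less than Sox12.

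Averaged over the sexes, none of the 6 genes passed for exercise by edgeR's quasi-likelihood test. Mtmr14, with a log2 difference of 0.21 ± 0.06 (SE), had an adjusted p of 0.782, as had Zfp622 at 0.15 ± 0.05. Sox12 was at 0.16 ± 0.10 and Bola1 at 0.09 ± 0.07, with adjusted p of 0.798 and 0.836. Vwa8 at 0.01 ± 0.05 and Fyco1 at -0.05 ± 0.05 were nearest to 0, with adjusted p of 0.993 and 0.887. Over all genes 0 of 16213 passed (0%), with 1018 (6.28%) at an unadjusted p under 0.05. DESeq2 called 18 of the 811 genes to which it gave an adjusted p, which Vwa8 and Fyco1 had (neither called) and the other 4 members lacked, and voom called 0. Exact two-sided permutation of the exercise labels within each sex, with 400 assignments, gave p from 0.065 for Mtmr14 to 0.94 for Vwa8.

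Averaged over the conditions, 4 of the 6 genes differed between the sexes, where 5.05% of all tested genes did. Vwa8 was lower in females, at a log2 difference of -0.38 ± 0.05 (SE) with an adjusted p of 0.00202 by edgeR, and so was Fyco1, at -0.30 ± 0.05 with an adjusted p of 0.00461. Sox12 was also lower in females, at -0.39 ± 0.10 with an edgeR adjusted p of 0.0316, while Bola1 was higher, at 0.31 ± 0.07 with an edgeR adjusted p of 0.0274. Of all tested genes 2.89% passed as lower in females and 2.16% as higher. Zfp622 at 0.04 ± 0.05 and Mtmr14 at -0.05 ± 0.06 did not pass, with edgeR adjusted p of 0.687 and 0.699. Exact two-sided permutation of the sex labels within each condition gave p = 0.005 for Fyco1, the smallest that 400 assignments allow, 0.01 for Vwa8, 0.04 for Sox12 and 0.05 for Bola1. Adjusted over the 12 permutation tests of these genes, the smallest p was 0.06, for Fyco1 and Vwa8.

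The sex differences were not of 1 size in the 2 conditions, which is the interaction seen from its other side. Vwa8 was at -0.11 ± 0.08 in exercised and -0.66 ± 0.08 in sedentary hearts (log2, females minus males, SE), Fyco1 at -0.07 ± 0.07 and -0.53 ± 0.07, and Bola1 at 0.00 ± 0.10 and 0.62 ± 0.10. For these 3 genes the females and males stood further apart in sedentary hearts. For Sox12 they stood further apart in exercised hearts, at -0.75 ± 0.14 against -0.03 ± 0.14.

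**Figure D4:**
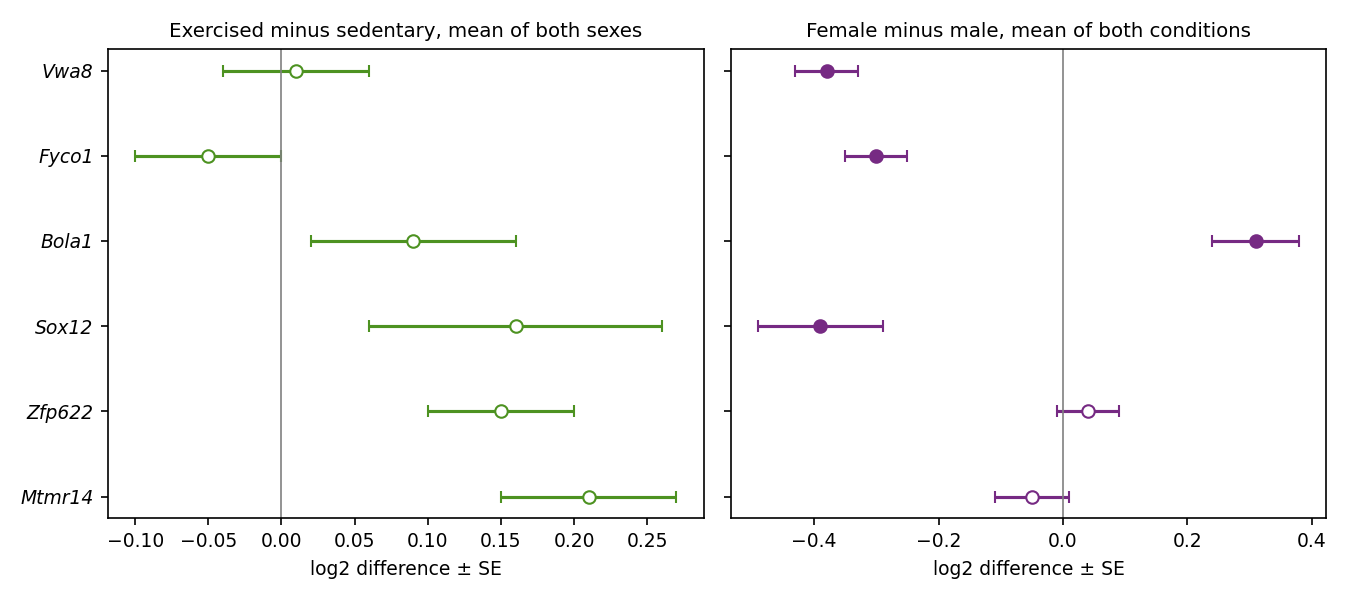
Log2 differences with their SE for the contrasts that the choice of the genes did not use: exercised minus sedentary averaged over the sexes (left) and female minus male averaged over the conditions (right). Filled points passed an adjusted p of 0.05: none on the left, and Vwa8, Fyco1, Bola1 and Sox12 on the right. The SEs share their estimate of spread with the interaction that chose the genes.

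The calls of Vwa8 and Fyco1 for sex held in each of the 21 other settings, with adjusted p up to 0.0217 and 0.0264. Bola1 was called in 12 of the 21 settings and Sox12 in 11. With 1 library left out, Bola1 was called in 5 of 12 edgeR fits. It was not called without female exercised 1 or 3, any sedentary female, male exercised 3 or male sedentary 3, with adjusted p from 0.0532 to 0.0699. Sox12 was called in 4 of the 12 edgeR fits. It was not called without female exercised 1 or 3, female sedentary 1 or 3, male exercised 1 or 2, or male sedentary 1 or 3, with adjusted p from 0.0506 to 0.0851. With the atrial covariate, Bola1 was at 0.36 ± 0.10 (SE) with an edgeR adjusted p of 0.106, and Sox12 at -0.57 ± 0.12 with 0.0506. Both differences were further from 0 than in the fit without the covariate, and both errors were larger. The 9 libraries low in atrial transcripts, with 1 sedentary female, gave differences of 0.34 for Bola1 and -0.56 for Sox12.

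Levels can be set side by side only per length of exon. Per kilobase, Fyco1 stood at 34.6 CPM, Vwa8 at 22, Bola1 at 13.9, Mtmr14 at 7.28, Zfp622 at 6.13 and Sox12 at 2.53, as means over the 12 libraries. Fyco1 thus lay above 92.4% of the tested protein-coding genes and Sox12 above 43.3%. The counts behind them ran from 4521 to 9901 per library for Vwa8 and Fyco1 and from 195 to 1198 for the other 4 genes. Sox12, with the fewest reads, had the largest residual SD of the 6, at 0.17 on the log2 scale, and Zfp622 the smallest, at 0.06.

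No neighbour of the 6 genes along the chromosome passed the test for the interaction. Most had the sign of their member, where 49.4% of all tested genes were above 0. Many of these values were smaller than their own SE, so nothing is read from the signs. The exceptions in sign were Lztfl1 beside Fyco1, at -0.07 ± 0.13 (SE), and Brpf1 beside Mtmr14. With SEs from 0.12 to 0.93, the lack of calls does not show that a shared pattern was absent. Of the 12 nearest tested protein-coding genes, none had an interaction with an unadjusted p under 0.05, and the smallest was 0.198, for Retreg1, an endoplasmic reticulum receptor of autophagy 10.7 kb from Zfp622, at -0.16 ± 0.12. Sv2a, whose end lies 1.07 kb from that of Bola1, was at -0.48 ± 0.58, and Hist2h2be, a histone gene 1.41 kb from the other end of Bola1, at -0.03 ± 0.20. Xcr1, 0.416 kb from Fyco1, was at 0.15 ± 0.93, with a mean of 0.40 CPM. Brpf1, 25.7 kb from Mtmr14, was at 0.01 ± 0.12, with 23.4 CPM, and Lhfpl4, on its other side, at -0.45 ± 0.72. Beside Sox12, Trib3 was at -0.31 ± 0.29 and Zcchc3 at -0.35 ± 0.28.

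Genes whose centred log2 CPM lay nearest to that of a member over the 12 libraries were looked for among 9678 autosomal protein-coding genes of at least 5 CPM, with the root mean square difference as the measure. Nearest to Vwa8 were Decr1 and Etfdh, enzymes of fatty acid oxidation, at 0.06 and 0.08, and Ephx2, an epoxide hydrolase, at 0.07, where the median over all genes was 0.28. Decr1 averaged 393 CPM in FEX, 339 in FSE, 445 in MEX and 522 in MSE. Among the nearest 3 of Fyco1 were Srl, a calcium-binding protein of the sarcoplasmic reticulum, and Fsd2, both at 0.08 (median 0.24). Decr1 stayed among the nearest 3 of Vwa8 in all 12 fits that left out 1 library. Of the variance of each member over the libraries, 79.3% (Sox12) to 91.1% (Vwa8) lay between the groups. Likeness to a member thus follows in part from the group pattern by which the member was chosen. Etfdh, Srl and Fsd2 themselves stood at places 9, 11 and 16 for the interaction.

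Around Bola1 stood Ctsz, a lysosomal protease, Nans, an enzyme of sialic acid synthesis, and Bola2, its relative in the cytosol, each at 0.10 (median 0.28). Sox12 had no near match, the closest being Nfic, a transcription factor, at 0.15, then Tdrp and Satb1 (median 0.33). Zfp622 had Atp6v0d1, a subunit of the proton pump of lysosomes, at 0.06, with Arl8a, a small GTPase of lysosome transport, and Cars2, the mitochondrial cysteinyl-tRNA synthetase, at 0.07 (median 0.19). Mtmr14 had Mpst, a sulfur transferase, at 0.08, and Arhgap39 and Slc2a8, a sugar transporter, at 0.09 (median 0.21). Each of the 3 genes named for Bola1, Sox12, Zfp622 and Mtmr14 dropped out of the nearest 3 in at least 1 of the 12 fits, as did Ephx2, Etfdh, Srl and Fsd2. The fits that kept a gene ran from 2 of 12 for Fsd2 and 3 for Cars2 to 11 for Nfic. For each of Bola1, Sox12, Zfp622 and Mtmr14, at least 1 fit kept 0 of the 3.

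The relatives of the 6 genes in their pathways, given as 7 lists, held no gene that passed for the interaction or for the average effect of exercise. Of 20 tested genes of iron-sulfur cluster assembly 9 had an interaction above 0 and 11 below, with a median of -0.05, beside 49.4% above 0 and a median of 0.00 over all tested genes. The smallest p in the list was that of Bola2, a partner of the cytosolic glutaredoxin Glrx3, at -0.63 ± 0.18 (unadjusted p = 0.003, edgeR adjusted p = 0.930). The mean level of Bola2 was 14.0 ± 0.412 CPM in FEX, 15.5 ± 1.22 CPM in FSE, 14.7 ± 1.69 CPM in MEX and 10.5 ± 1.80 CPM in MSE (SD, n = 3 each). Bola3, the other mitochondrial BolA protein, was at -0.10 ± 0.13, Glrx5 at -0.30 ± 0.25, Nfs1, the sulfur donor enzyme, at 0.02 ± 0.09, Iscu, the scaffold protein, at -0.20 ± 0.15 and Isca1, a later carrier, at 0.22 ± 0.08.

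In the list of mitochondrial AAA+ ATPases and proteases 8 of 13 had an interaction above 0, with a median of 0.07. The 13 include Fignl1, an AAA+ ATPase known from DNA repair rather than mitochondria. It was at 0.09 ± 0.65, with a mean of 0.677 CPM or less in each group. Oma1, a stress-activated protease of the inner membrane, was at 0.30 ± 0.09 and Atad1, which pulls misplaced proteins from the outer membrane, at 0.17 ± 0.08. Lonp1, a matrix protease, was at -0.16 ± 0.11, Clpx and Clpp, which form another matrix protease, at 0.25 ± 0.15 and -0.08 ± 0.10, and Yme1l1 at 0.10 ± 0.10.

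In the list of autophagosome transport and readers of PI3P, 11 of 24 genes were above 0, with a median of -0.03. Rab7, the GTPase that Fyco1 binds, was at 0.24 ± 0.09 (edgeR adjusted p = 0.930). Vps41, of the complex that tethers vesicles to lysosomes, was at 0.26 ± 0.10, with the same edgeR adjusted p. Map1lc3b, which encodes an LC3, was at 0.01 ± 0.09, Kif5b, a kinesin, at 0.02 ± 0.14 and Stx17, of the fusion step, at 0.15 ± 0.13. In the list of the PI3P-making kinase and the start of autophagy 13 of 23 were above 0 (median 0.00), with Pik3c3, the kinase, at -0.07 ± 0.11, Becn1 at -0.09 ± 0.08, Ulk1 at -0.13 ± 0.17 and Pikfyve, which turns PI3P into the related lipid, at 0.13 ± 0.19. Vac14 and Fig4, partners of Pikfyve, were at -0.22 ± 0.11 and 0.20 ± 0.11.

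Of the other myotubularins 11 of 13 had an interaction above 0, with a median of 0.06. Mtm1, whose loss causes a muscle disease, was at 0.28 ± 0.16, Mtmr2 at 0.04 ± 0.13, Mtmr3 at 0.06 ± 0.10, Mtmr4 at 0.22 ± 0.26 and Sbf1, an inactive member, at -0.20 ± 0.17. Most of these values lay within about 1 SE of 0, and without male sedentary 2 the count above 0 was 6 of the 13. In the list of 13 Sox and TEAD factors 4 were above 0 (median -0.25): Sox4 was at -0.34 ± 0.37, Tead1 at -0.10 ± 0.14, Sox6 at 0.33 ± 0.18 and Sox5 at 0.88 ± 0.37, while Sox11 did not pass the filter on low counts. In the list of 60S maturation 12 of 20 were above 0 (median 0.04). The 20 include Melk, a mitotic kinase rather than a 60S factor, at -0.43 ± 1.05, with a mean of 0.445 CPM or less in each group. Eif6, the factor that holds the subunits apart, was at -0.21 ± 0.11 and Nmd3, the export adaptor, at 0.05 ± 0.13. Lsg1, which releases Nmd3, was at -0.15 ± 0.12, Sbds at -0.08 ± 0.13 and Gnl2, of the nucleolus, at 0.20 ± 0.12.

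**Figure D5:**
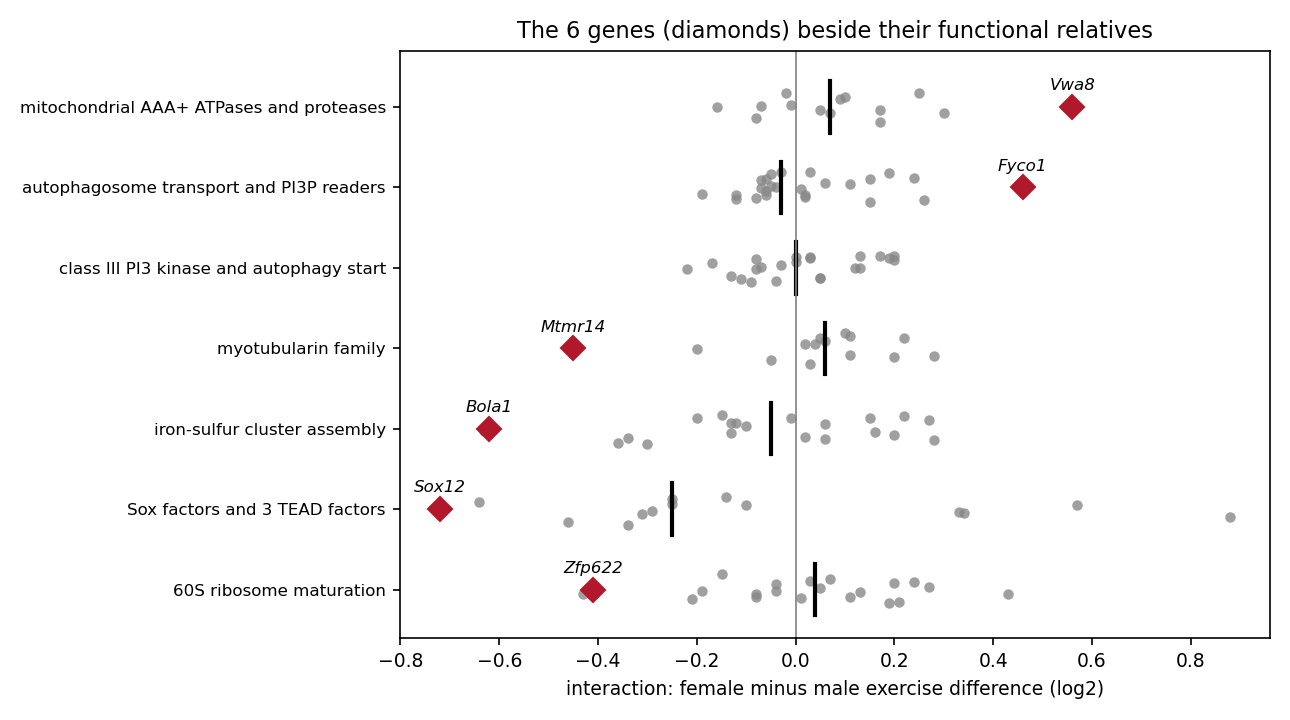
Interaction (log2 exercise difference in females minus that in males) of the tested genes of 7 lists of relatives (grey points, spread at random in height), with the list median as a black bar and the 6 chosen genes as red diamonds. The 6 were chosen for a large interaction and the relatives were not, so their distance from the lists follows from that choice; the list medians lie between -0.25 and 0.07.

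For sex averaged over the conditions, 6 of the 126 tested genes of these lists passed, or 4.76%, beside 5.05% of all tested genes. All 6 were lower in females, the side on which 2.89% of all tested genes passed. There were 0 of 13 myotubularins, 0 of 13 Sox and TEAD factors and 0 of 20 in the 60S maturation list. The 6 genes included 1 of 13 in the list of mitochondrial AAA+ ATPases and proteases and 2 of 24 in autophagosome transport and PI3P reading. The 6 also included 1 of 23 around the PI3P kinase and 2 of 20 in iron-sulfur assembly. Among them were Spg7, a protease of the inner mitochondrial membrane, at -0.21 with an edgeR adjusted p of 0.0104, Osbpl1a, a lipid sensor that binds Rab7, at -0.20 (0.0234), Wipi1, a reader of PI3P, at -0.24 (0.0468), and Rb1cc1, a scaffold of the kinase complex that starts autophagy, at -0.26 (0.0168). Hspa9, a chaperone of the mitochondrial iron-sulfur pathway, was at -0.18 (0.0365).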

How the data were processed

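The authors deposited raw read counts for each gene and library. The submitters' processing notes name Trimmomatic 0.36, STAR 2.5.2b and featureCounts of Subread 1.5.2, with the build GRCm38; annotation release and strand setting: not given in the sources used here. Of 55401 rows, 55141 matched GENCODE M21 by identifier without version and 54349 with it. In R 4.3.3, edgeR 4.0.16 was used: filterByExpr kept 16213 genes, libraries were scaled by the trimmed mean of M-values, and a group-means model of all 12 libraries (8 residual degrees of freedom) was tested by robust quasi-likelihood, with p adjusted by Benjamini-Hochberg over all tested genes at 0.05. The median SE of a log2 difference was 0.14 within a sex, 0.20 for the interaction and 0.10 for the averages. CPM uses the scaled library sizes, and log2 CPM a prior count of 2. The fit was tested on simulated data with changes planted in exercised females only. Those changes were larger than the members' differences, so the simulation does not show how well differences of that size are found. DESeq2 1.42.0 and limma 3.58.1 (voom) were alternatives, with other scalings, filters and spread estimates, the atrial covariate, 9 libraries, and each library left out. Named relatives were a panel and, in each list, the 2 of smallest interaction p; the nearest genes, neighbours and the 3 genes just outside the last place were taken by rule. The text names a part of these, and some items that the rules would name are not reported here. The members, lists and tests were chosen with earlier results of these data known.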

Additional observations from a re-analysis of the deposited data

Results flagged for a closer look

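Vwa8, Fyco1 and Bola1 are listed because every exercised female library lay on one side of the sedentary females and every exercised male library on the opposite side of the sedentary males. Their interactions were 0.56, 0.46 and -0.62 on the log2 scale. Of all tested genes 0.629% had this pattern. These differences chose the genes and were not tested, so nothing is read from the count.

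Female sedentary 2 held 27.3% of its counts on the mitochondrial rows, which none of the comparisons used and which were at 0 in the other 11 libraries. Without that library, the interaction of Vwa8 stood at place 1, that of Fyco1 at 3, that of Zfp622 at 6, that of Bola1 at 13, that of Mtmr14 at 50 and that of Sox12 at 52.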

How the results depend on the processing

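No paired analysis was possible because the labels give the libraries no replicate numbers that groups share. Vwa8 and Fyco1 kept their sex calls in all 21 other settings, and no setting called a member for the average effect of exercise, where DESeq2 gave an adjusted p to 811 genes, of the members Vwa8 and Fyco1 only. Members called for sex fell to 2 with the atrial covariate and 2 in the 9 libraries low in atrial markers, and ran from 2 to 4 with 1 library left out; the 2 lost were Bola1 and Sox12. Without a filter on low counts, edgeR called 399 genes for average exercise, 1683 for sex, 173 for the interaction, 357 for exercise in females and 327 in males, against 0, 818, 0, 0 and 0 with it, and DESeq2 called 18, 1375, 5, 1 and 15. Calls for sex numbered 154 with the atrial covariate and 119 in the 9 libraries. With 1 library left out they ran from 421 to 837, and those for average exercise, the interaction and exercise in females from 0 to 1 each. Calls for sex came to 421 without female exercised 1, 545 without female exercised 2, 448 without female sedentary 1, 451 without male exercised 3, 521 without male sedentary 1 and 427 without male sedentary 3. The average effect of exercise turned its sign for Fyco1, to 0.01 in the 9 libraries, and for Vwa8, from -0.02 to 0.04 with 1 library left out; neither gene passed for it in any setting. In the 9 libraries the female exercise difference was 0.43 for Vwa8, 0.29 for Fyco1, 0.08 for Mtmr14 and -0.05 for Sox12. Female sedentary 3 was the only sedentary female there, so these values rest on 1 library. Genes above 0 in the autophagosome transport list numbered 18 without male exercised 2 and 7 without male sedentary 3, against 11. The causes were not tested. With 3 libraries a group, a member's interaction has an SE from 0.10 to 0.19, which limits what could be seen.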
